A study of Homo sapiens with 6 samples.

Results

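A set of 10 noncoding genes that host small nucleolar RNAs (snoRNAs) in their introns is described here: SNHG1, SNHG3, SNHG4, SNHG5, SNHG6, SNHG7, SNHG8, SNHG12, SNHG15 and SNHG26. They are 10 of the 60728 genes counted, and all 10 were among the 15548 genes that passed the filter on low counts. The set was selected on its measured levels and log2 changes between 2 h, 6 h and DMSO in these libraries, to hold hosts that were lower early, hosts that were lower late and hosts that did not move. The levels and log2 changes of the 10 genes are therefore given as a description with no p-value. Where the number of them past the threshold of the fit over all genes is given, or a call lost or gained, it is part of that description and nothing is read from it.

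RNA-seq was done on JJN3, a human multiple myeloma cell line of wild-type genotype. Cells were given WNK463, an inhibitor of the WNK kinases, for 2 h (2 libraries) or 6 h (2 libraries), or the vehicle DMSO (2 libraries). All were grown in a mixture of DMEM and IMDM with 20% fetal bovine serum. The sample labels give the dose of WNK463 as 5 µM and the series text gives 1 µM, and the DMSO libraries are labelled as controls with no time of their own. Separate cultures behind the replicates are not stated in the labels, and the p-values given here cover the spread of these libraries alone, which may be technical.

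Library totals, as counts in genes, were 18713007 and 24002291 in the 2 h libraries, 18959025 and 19264703 in the 6 h libraries, and 18013790 and 21300013 in the DMSO libraries. A count of 3 was worth 0.128 to 0.166 CPM, which is a count scaled to the size of its library, while the lowest value of any of the 10 hosts in any library was 7.01 CPM. All 8 plasma cell markers exceeded 1 CPM, and their summed level was 1864 to 1903 CPM at 2 h, 1791 to 1846 CPM at 6 h and 1819 to 1909 CPM in DMSO. That sum covers markers called in both directions. Of the 8, 3 were called higher and 1 lower at 2 h, and 2 higher and 3 lower at 6 h. Over all genes, 8.68% were higher and 8.32% lower at 2 h, and 18.0% and 18.6% at 6 h. None of the 4 T cell markers and none of the 4 erythroid markers exceeded 1 CPM. Of the 4 B cell markers, PAX5 and BCL6 did, and the summed level of the list was 5.68 to 8.09 CPM at 2 h, 3.86 to 7.53 CPM at 6 h and 4.76 to 5.58 CPM in DMSO. BCL6 was called higher at 2 h and at 6 h (log2 changes 1.38 and 1.68, edgeR adjusted p = 0.0146 and 0.000872), and PAX5 lower at 6 h (-1.15, edgeR adjusted p = 0.00894). Of the 4 myeloid markers, CSF1R exceeded 1 CPM, and the summed level was 1.37 to 1.42 CPM at 2 h, 1.58 to 1.91 CPM at 6 h and 1.04 to 1.72 CPM in DMSO. The part of these markers in the results below was not tested. In bulk RNA of this kind, fewer cells expressing a gene and less RNA of it per cell cannot be told apart.

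In human cells most snoRNAs are cut from the introns of longer transcripts. Box C/D snoRNAs guide methylation of the ribose in ribosomal RNA, and box H/ACA snoRNAs guide the conversion of uridine to pseudouridine. The spliced exons of the noncoding hosts usually encode no conserved protein, and many of these spliced RNAs are short-lived because ribosomes engage them and nonsense-mediated decay destroys them. Several hosts start transcription in a run of pyrimidines, the terminal oligopyrimidine (TOP) motif also found at the start of messenger RNAs for ribosomal proteins and elongation factors.

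The spans of the 10 hosts hold 24 annotated snoRNA genes with 21 distinct symbols, of which 11 are box C/D (SNORD) and 13 are box H/ACA (SNORA) genes. SNORA16A in SNHG12 and SNORA17B in SNHG7 are each annotated 2 times at overlapping positions, and each entry is counted here. SNHG1 (ENSG00000255717.7, hg38 chr11:62851984-62855953, minus strand) holds 7 of them, all box C/D. SNHG12 (ENSG00000197989.14, chr1:28578538-28583132, minus strand) holds 5, SNHG7 (ENSG00000233016.7, chr9:136721366-136728184, minus strand) holds 3, and SNHG3 (ENSG00000242125.3, chr1:28505980-28510892, plus strand) and SNHG4 (ENSG00000281398.4, chr5:139274102-139284899, plus strand) hold 2 each. The other hosts hold 1 each. They are SNHG5 (ENSG00000203875.13, chr6:85650491-85678932, minus strand) with SNORD50B, SNHG6 (ENSG00000245910.8) with SNORD87, SNHG8 (ENSG00000269893.8, chr4:118278709-118285316, plus strand) with SNORA24, SNHG15 (ENSG00000232956.9, chr7:44983023-44986961, minus strand) with SNORA9, and SNHG26 (ENSG00000228649.9, chr7:22854126-22872945, plus strand) with SNORD93.

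Box C/D snoRNAs of SNHG1, the host with the most of them, and of SNHG26, the host with the lowest level at 6 h, show what these introns encode. They are given 5′ to 3′ from GENCODE 29 transcripts on GRCh38. Capitals mark NGATGA (N is any base) within the first 20 bases and CTGA within the last 15, the letters of boxes C and D, searched on the snoRNA's own strand. Those with both are shown; the letters NGATGA were not found in the window of either SNORD22 gene of SNHG1.
SNORD25 in SNHG1 (chr11:62855564-62855632, minus strand): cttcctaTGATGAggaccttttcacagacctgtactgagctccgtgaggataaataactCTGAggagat
SNORD26 in SNHG1 (chr11:62855292-62855366, minus strand): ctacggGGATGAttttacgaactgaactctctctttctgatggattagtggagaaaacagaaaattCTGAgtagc
SNORD27 in SNHG1 (chr11:62855012-62855083, minus strand): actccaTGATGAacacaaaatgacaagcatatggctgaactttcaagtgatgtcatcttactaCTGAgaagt
SNORD28 in SNHG1 (chr11:62854621-62854695, minus strand): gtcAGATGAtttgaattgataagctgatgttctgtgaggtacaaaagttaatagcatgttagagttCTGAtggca
SNORD30 in SNHG1 (chr11:62853663-62853732, minus strand): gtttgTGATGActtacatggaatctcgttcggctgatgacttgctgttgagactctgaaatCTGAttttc
SNORD93 in SNHG26 (chr7:22856613-22856686, plus strand): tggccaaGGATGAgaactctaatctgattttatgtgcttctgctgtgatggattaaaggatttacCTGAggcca
Both boxes were found in 8 of the 10 SNORD sequences read, against 69.1% of the 288 SNORD transcripts of GENCODE 29. The letters ACA, searched within the last 8 bases, were found in 11 of the 13 SNORA sequences, against 89.9% of 149 SNORA transcripts. Both overlapping entries of SNORA16A and of SNORA17B are among the 11.

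The start sites of 8 hosts are given from RefSeq promoters (GRCh38.p14), 15 bases before the RefSeq start and 35 from it, because this is where a TOP motif would lie. Capitals mark the longest run of C and T that touches the stretch from 10 bases before the start to 20 from it, on the gene's own strand.
SNHG4 (chr5:139274086-139274135, plus strand): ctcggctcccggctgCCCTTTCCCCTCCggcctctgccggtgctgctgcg
SNHG12 (chr1:28581839-28581888, minus strand): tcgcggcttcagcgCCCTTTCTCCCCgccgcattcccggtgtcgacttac
SNHG26 (chr7:22854225-22854274, plus strand): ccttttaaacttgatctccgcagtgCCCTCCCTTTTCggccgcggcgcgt
SNHG7 (chr9:136728150-136728199, minus strand): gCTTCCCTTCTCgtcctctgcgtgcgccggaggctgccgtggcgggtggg
SNHG1 (chr11:62855851-62855900, minus strand): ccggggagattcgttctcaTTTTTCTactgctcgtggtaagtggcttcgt
SNHG3 (chr1:28505928-28505977, plus strand): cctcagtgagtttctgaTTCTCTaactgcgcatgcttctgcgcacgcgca
SNHG5 (chr6:85678699-85678748, minus strand): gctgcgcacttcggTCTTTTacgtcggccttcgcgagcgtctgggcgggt
SNHG8 (chr4:118278747-118278796, plus strand): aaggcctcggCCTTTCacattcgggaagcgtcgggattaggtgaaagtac
The run was 13 bases long in SNHG4, 12 in SNHG12 and SNHG26, 11 in SNHG7, 7 in SNHG1, and 6 in SNHG3, SNHG5 and SNHG8, and the median over 35116 promoters was 5. Runs of at least 13, 12 and 11 bases occur in 3.77%, 4.94% and 6.74% of those promoters. Those of at least 7 and 6 bases occur in 25.8% and 37.8%. SNHG6 and SNHG15 are named without a start site. RefSeq starts can differ from the ends of the spans given above. That of SNHG3 is 28505943, before its span, which begins at 28505980. That of SNHG12, on the minus strand, is 28581873, inside its span, which reaches 28583132. The run begins at the RefSeq start itself in SNHG4, 1 base before it in SNHG12 and SNHG5, and 14 bases before it in SNHG7. In SNHG26 it begins at base 11 from the start. The palindrome CACGTG was present in 1 of the 8 promoters, that of SNHG7, and in 7.26% of all promoters over 250 bases before the start and 50 from it.

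SNHG4, SNHG3 and SNHG8 were lower at 2 h and stood at about the same level at 6 h. SNHG4 is the host of SNORA74A and SNORA74D, both box H/ACA. Its level was 25.3 and 20.7 CPM in the 2 h libraries, 22.2 and 22.7 CPM in the 6 h libraries, and 73.8 and 71.7 CPM in the DMSO libraries. All 4 treated libraries lay far below the DMSO libraries, and the 2 h and 6 h libraries overlapped. The log2 change was -1.67 (SE 0.113) at 2 h and -1.70 (SE 0.113) at 6 h against DMSO, with -0.03 (SE 0.119) between 6 h and 2 h.

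SNHG3 hosts SNORA73A and SNORA73B, which take part in cleaving the ribosomal RNA precursor. Libraries held 61.8 and 56.5 CPM of it at 2 h, 62.9 and 66.1 CPM at 6 h, and 113.7 and 117.2 CPM in DMSO. It alone of the 10 had both 6 h libraries above both 2 h libraries, by a log2 difference of 0.13 (SE 0.0873). Against DMSO its log2 change was -0.97 (SE 0.0858) at 2 h and -0.84 (SE 0.0855) at 6 h, so that 51.2% of the DMSO level was measured at 2 h and 55.8% at 6 h.

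SNHG8, which holds SNORA24, had 21.4 and 27.8 CPM at 2 h, 21.9 and 23.3 CPM at 6 h, and 34.6 and 32.3 CPM in DMSO. Treated libraries were all below DMSO, but the 2 h libraries were apart by a factor of 1.3. Its log2 change was -0.44 (SE 0.128) at 2 h and -0.56 (SE 0.129) at 6 h. Without the first 2 h library the 2 h value was -0.26, and its call was lost there and without the first DMSO library.

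SNHG26, SNHG7 and SNHG1 were lower at 2 h and lower still at 6 h, and SNHG12 was lower at both times with a step between them that was not called. SNHG26, the host of SNORD93, was furthest below DMSO at 6 h. It had 15.9 and 17.3 CPM at 2 h, 7.01 and 11.9 CPM at 6 h, and 42.9 and 48.1 CPM in DMSO. The 3 groups did not overlap, and the 6 h libraries differed from each other by a factor of 1.69, the widest gap between replicates in the set. Its log2 change against DMSO was -1.45 (SE 0.146) at 2 h and -2.27 (SE 0.155) at 6 h. The difference between 6 h and 2 h was -0.82 (SE 0.162), and it was -0.49, with its call lost, without the first 6 h library and -1.25 without the second.

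SNHG7 hosts SNORA17A and SNORA17B. There were 29.1 and 28.8 CPM of it at 2 h, 20.9 and 16.2 CPM at 6 h, and 57.9 and 49.6 CPM in DMSO. Each group was clear of the next, with 53.9% of the DMSO level left at 2 h and 34.5% at 6 h. Log2 changes were -0.89 (SE 0.119) at 2 h, -1.53 (SE 0.124) at 6 h, and -0.64 (SE 0.127) between 6 h and 2 h.

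SNHG1, the most abundant of the 10 in CPM, had 151.7 and 154.2 CPM at 2 h, 123.5 and 123.2 CPM at 6 h, and 229.4 and 219.8 CPM in DMSO. Its replicates were the closest of the set at 6 h, with a ratio of 0.998. The log2 change was -0.55 (SE 0.0685) at 2 h, -0.86 (SE 0.0693) at 6 h, and -0.31 (SE 0.0695) between 6 h and 2 h.

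SNHG12 holds 4 annotated box H/ACA genes, among them the overlapping entries of SNORA16A, and SNORD99. Its values were 20.7 and 25.7 CPM at 2 h, 19.0 and 18.3 CPM at 6 h, and 44.6 and 37.7 CPM in DMSO. The 3 groups were apart, though the step between 6 h and 2 h (-0.32, SE 0.133, log2) was about as large as the gap between the 2 h replicates, whose ratio was 1.24. That step was not called, and it was -0.47 without the first 2 h library and -0.15 without the second. Against DMSO the log2 change was -0.82 (SE 0.127) at 2 h and -1.14 (SE 0.13) at 6 h.

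**Figure D1:**
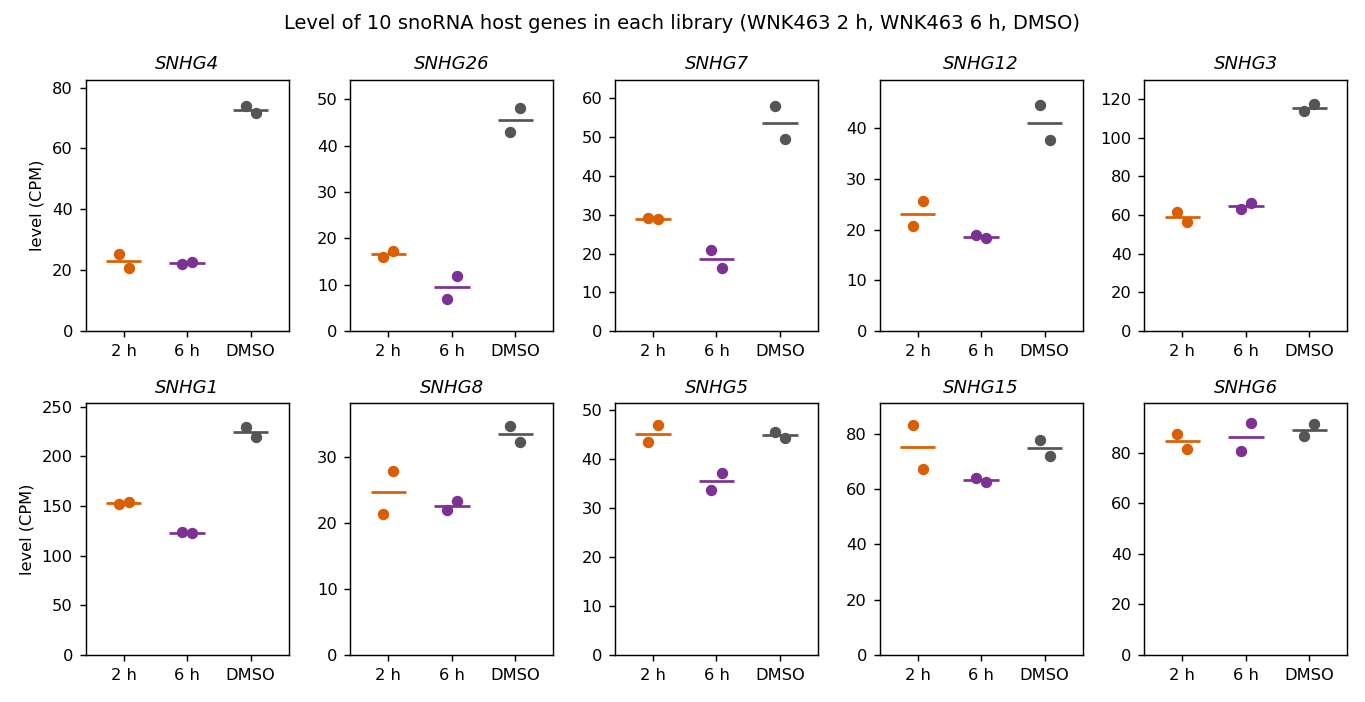
Level of each of the 10 hosts in CPM (vertical axes from 0, a scale for each gene), with 1 point a library and a bar at the mean of the 2 libraries, for WNK463 2 h, WNK463 6 h and DMSO from left to right. SNHG4 shows treated groups of like height (means of 23.0 CPM at 2 h and 22.4 CPM at 6 h) far below DMSO (72.8 CPM), SNHG26 shows a stair of 3 steps, and SNHG6 shows 3 groups that overlap.

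SNHG5 and SNHG15 were at the DMSO level at 2 h and below it at 6 h, and SNHG6 was near the DMSO level at both times. SNHG5, the host of SNORD50B, had 43.4 and 46.8 CPM at 2 h, 33.7 and 37.1 CPM at 6 h, and 45.5 and 44.3 CPM in DMSO. Only the 6 h libraries were set apart. The log2 change was 0.01 (SE 0.105) at 2 h and -0.34 (SE 0.107) at 6 h against DMSO, and -0.35 (SE 0.107) between 6 h and 2 h. Without the first 6 h library the values against DMSO and 2 h were -0.27 and -0.28, and both calls were lost. The call against 2 h was also lost without the second 2 h library (-0.29).

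SNHG15, which holds SNORA9, had 83.2 and 67.3 CPM at 2 h, 63.9 and 62.4 CPM at 6 h, and 77.8 and 72.0 CPM in DMSO. The 2 h libraries bracketed DMSO, and the 6 h libraries were below every other library. Its log2 change was 0.00 (SE 0.0931) at 2 h and -0.25 (SE 0.094) at 6 h. The 6 h value stayed between -0.30 and -0.19 over 12 alternatives, and its call was lost in 5 of them, among them the fits without the first DMSO library, without the first 6 h library and without the second. The difference between 6 h and 2 h was -0.25 (SE 0.0938), and it was -0.10 without the first 2 h library and -0.40 without the second.

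SNHG6, which holds SNORD87, had 87.6 and 81.5 CPM at 2 h, 80.7 and 91.7 CPM at 6 h, and 86.6 and 91.3 CPM in DMSO. Its groups overlapped in every comparison. The log2 change was -0.07 (SE 0.0849) at 2 h and -0.04 (SE 0.085) at 6 h, and the difference between 6 h and 2 h was 0.03 (SE 0.085), each smaller than its SE.

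**Figure D2:**
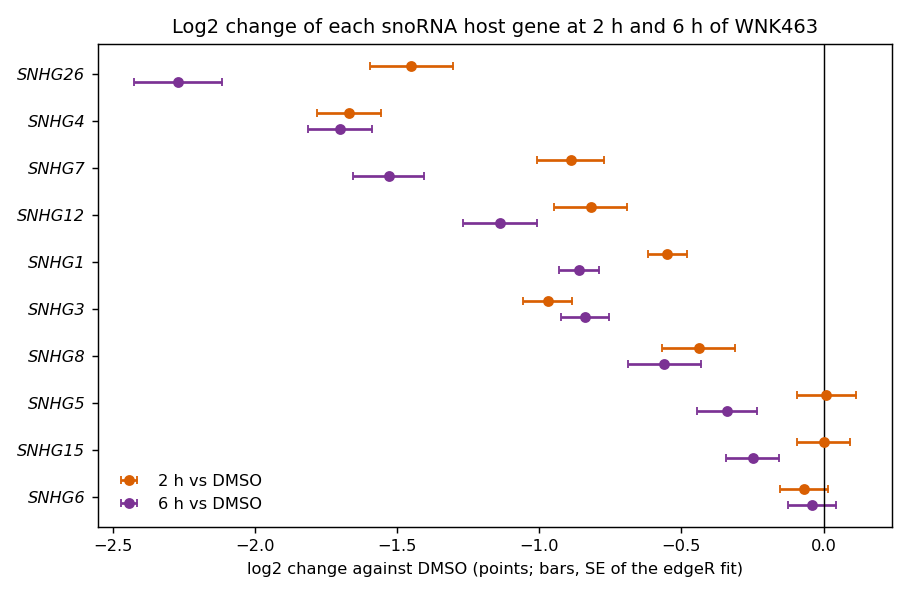
Log2 change of each host against DMSO (horizontal axis) with the SE of the edgeR fit as a bar, 2 h above 6 h for each gene, genes ordered by the change at 6 h. Points of SNHG26 (-1.45 at 2 h, -2.27 at 6 h) and SNHG7 lie far apart, those of SNHG4 and SNHG3 lie together, and those of SNHG5 and SNHG15 lie at 0 at 2 h only.

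As these contrasts were used to choose the genes, nothing is read from how many of them were called. With edgeR's quasi-likelihood test and a limit of 0.05 on the p adjusted over all 15548 genes by Benjamini-Hochberg, 7 of the 10 were called lower at 2 h against DMSO, where 8.32% of all genes were called lower. At 6 h against DMSO, 9 of the 10 were called lower, where 18.6% of all genes were. At 6 h against 2 h, 5 of the 10 (SNHG1, SNHG5, SNHG7, SNHG15 and SNHG26) were called lower, where 13.1% of all genes were. The median log2 change of the 10 was -0.69 at 2 h, -0.85 at 6 h and -0.28 between 6 h and 2 h, beside medians of -0.00, -0.00 and 0.01 over all genes. Both libraries of the treated group lay below both DMSO libraries for 7 hosts at 2 h, where this held for 27.4% of all genes, and for 9 hosts at 6 h, where it held for 33.1%. Both comparisons with DMSO share the same DMSO libraries.

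Per kilobase of exon (FPKM, from the TMM-scaled CPM), SNHG6 had the highest level in each group, with 67.8 FPKM at 2 h, 69.2 FPKM at 6 h and 71.3 FPKM in DMSO. SNHG1 was next, with 38.5 FPKM at 2 h, 31.1 FPKM at 6 h and 56.6 FPKM in DMSO, and its libraries did not overlap those of SNHG6. At 2 h the order went on with SNHG15 (19.1 FPKM), SNHG3 (14.5), SNHG7 (5.92), SNHG12 (5.45), SNHG4 (5.15), SNHG8 (3.72), SNHG5 (3.58) and SNHG26 (2.78). Libraries of SNHG7 and SNHG12, of SNHG12 and SNHG4, and of SNHG8 and SNHG5 overlapped there. At 6 h it went on with SNHG15 (16.0 FPKM), SNHG3 (15.8), SNHG4 (5.02), SNHG12 (4.37), SNHG7 (3.79), SNHG8 (3.42), SNHG5 (2.81) and SNHG26 (1.58), with overlaps between SNHG15 and SNHG3 and between SNHG7 and SNHG8. In DMSO it went on with SNHG3 (28.2 FPKM), SNHG15 (19.0), SNHG4 (16.3), SNHG7 (11.0), SNHG12 (9.65), SNHG26 (7.63), SNHG8 (5.06) and SNHG5 (3.56), and only SNHG7 and SNHG12 overlapped. SNHG26 thus stood above SNHG8 and SNHG5 in DMSO and below all the others at both times.

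These per-length levels rest on the union of annotated exons, which includes retained-intron isoforms. That union was 1247 bases in SNHG6 and 12604 bases in SNHG5. In SNHG1, SNHG8 and SNHG15 it covered the whole gene, with 3970, 6608 and 3939 bases, so that spliced and unspliced RNA cannot be told apart there. It covered 4266 of 4595 bases in SNHG12 and 4088 of 4913 in SNHG3. In SNHG26 it covered 5962 of 18820 bases, in SNHG4 4469 of 10798 and in SNHG7 4891 of 6819. Counts over the union do not separate spliced from unspliced RNA in these hosts either.

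**Figure D3:**
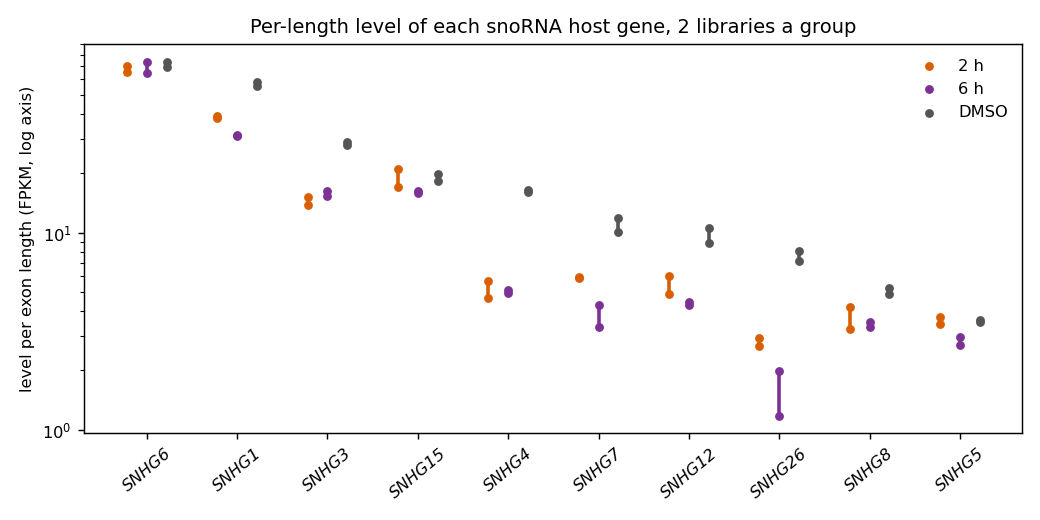
Level of each host per kilobase of exon (FPKM, log axis), 2 points a group joined by a line, for 2 h, 6 h and DMSO from left to right within each gene, genes ordered by their DMSO level. SNHG6 stays near 70 FPKM in each group, while SNHG26 has 2.78 FPKM at 2 h, 1.58 FPKM at 6 h and 7.63 FPKM in DMSO.

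Of the 24 snoRNA genes, 19 lie inside the exon union of their host, and none of these 19 had a count in any library. Fragments over exons of more than 1 gene had not been assigned to any. The other 5 are clear of host exons and had between 11 and 294 counts over all 6 libraries. SNORA73B in SNHG3 had 30 and 48 counts at 2 h, 17 and 45 at 6 h, and 58 and 96 in DMSO. Per 100 counts of SNHG3 it had 2.65 and 3.63 at 2 h, 1.39 and 3.46 at 6 h, and 2.83 and 3.87 in DMSO. These ratios overlapped between the groups. SNORD93 (31 counts in all), SNORD99 (24), SNORA74A (13) and SNORA74D (11) were too sparse for a level. Such counts come from fragments of a library that was not made for small RNAs and can include unspliced host RNA, so that mature snoRNA was not measured.

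Counting ignored strand, and all 10 hosts share exon bases with other genes, snoRNA genes included, between 3.38% of the union in SNHG15 and 39.6% in SNHG8. SNHG8 shares 37.6% with PRSS12, a serine protease gene on the other strand, and SNHG7 shares 30.3% with DIPK1B, also on the other strand. SNHG6 shares 29.3% with MCMDC2, and SNHG4 shares 14.0% with a record of MATR3. Fragments there were assigned to neither gene, so the host's values come from the remainder. Where only one gene is annotated, reads of the other strand still count for it.

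Protein-coding genes beside the hosts had changes of their own. SLC3A2, the heavy chain of an amino acid transporter, starts 149 bases from SNHG1 on the other strand. It had 386.2 and 374.0 CPM at 2 h, 282.3 and 280.5 CPM at 6 h, and 349.5 and 322.4 CPM in DMSO. Its log2 change was -0.26 at 6 h against DMSO (edgeR adjusted p = 0.000704), so that it fell. The 2 h value was 0.18, a call lost without either 2 h library, without either 6 h library and without the second DMSO library. That call was also lost with scaling by library size alone (0.15) and with only the groups compared in the fit (0.19). SNHG1 was at 68.1% of its DMSO level at 2 h.

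RCC1, the nucleotide exchange factor of the Ran GTPase, starts 37 bases before the span of SNHG3 on the same strand and shares 5.92% of its exon bases. The RefSeq start of SNHG3 (28505943) is the same base as the start of RCC1. It had 193.0 and 185.8 CPM at 2 h, 125.0 and 137.2 CPM at 6 h, and 220.8 and 211.7 CPM in DMSO. RCC1 fell by 0.72 on the log2 scale at 6 h (edgeR adjusted p = 1.05e-11), and its 2 h value was -0.19, a call lost in 10 of 12 alternatives, among them each fit without a 2 h library, without a 6 h library or without the first DMSO library. SNHG3 had its lower value at 2 h (-0.97) and RCC1 at 6 h. The difference between the genes was not tested.

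DIPK1B, a gene for a kinase-like protein that lies antisense to SNHG7, had 22.9 and 26.0 CPM at 2 h, 12.9 and 12.3 CPM at 6 h, and 25.0 and 20.1 CPM in DMSO. Its log2 change was 0.12 at 2 h, not called, and -0.84 at 6 h (edgeR adjusted p = 8.59e-06). PRSS12, at 4.12 to 6.26 CPM, had log2 changes of -0.07 and -0.37 at 2 h and 6 h and was not called.

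Beyond the 10, the annotation holds 41 other noncoding genes with a snoRNA inside their span on the same strand, of which 20 passed the filter. At 2 h, 5 of the 20 fell and 15 were not called, with a median log2 change of -0.39. At 6 h, 8 fell and 12 were not called, with a median of -0.60. Both medians include sparse genes: SNHG9, SNHG18, SNHG21, TIMM23B-AGAP6 and ENSG00000252690 averaged 0.331 to 0.76 CPM. Their log2 changes ran from -2.53 to -0.40 at 2 h (SE 0.752 to 1.12). At 6 h they ran from -2.63 to 0.09 (SE 0.806 to 1.07), and TIMM23B-AGAP6 is among the 8 that fell. Over 2115 tested noncoding genes outside the set, 5.67% fell at 2 h and 8.7% at 6 h, with medians of -0.15 and -0.06. The 2 h count was 3 without the first DMSO library or without the second 2 h library, and 8 of 26 hosts when either strand was allowed.

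TMEM161B-DT, a divergent noncoding transcript, had 12.1 and 13.2 CPM at 2 h, 19.8 and 18.4 CPM at 6 h, and 27.6 and 32.5 CPM in DMSO. It fell by 1.25 on the log2 scale at 2 h and by 0.66 at 6 h (edgeR adjusted p = 2.98e-09 and 0.000131), and it was higher at 6 h than at 2 h by 0.59. SNHG16 fell to 73.1 ± 3.39 CPM at 2 h and 69.8 ± 0.039 CPM at 6 h, against 106.7 ± 7.06 CPM in DMSO (SD, n = 2), with log2 changes of -0.55 and -0.61 (edgeR adjusted p = 3.07e-06 and 8.28e-08).

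DANCR and SNHG17 fell at 6 h. DANCR had 75.9 and 80.2 CPM at 2 h, 57.4 and 56.2 CPM at 6 h, and 91.1 and 86.0 CPM in DMSO, a log2 change of -0.18 at 2 h (edgeR adjusted p = 0.152) and of -0.64 at 6 h (adjusted p = 6.81e-08). SNHG17 had 91.8 and 82.6 CPM at 2 h, 56.9 and 62.3 CPM at 6 h, and 93.0 and 85.7 CPM in DMSO, with -0.04 at 2 h (edgeR adjusted p = 0.836) and -0.58 at 6 h (adjusted p = 6.07e-07). Both also fell between 2 h and 6 h, by 0.46 and 0.55.

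Other genes carry an SNHG symbol without being in the set: 18 are annotated and 14 passed the filter. This list was chosen after its values were seen, and the other lists were chosen with earlier results of these data known. SNHG32 is also among the protein-coding hosts and the other 13 tested are among the noncoding hosts, so their calls are counted there as well. Of the 14, 4 fell at 2 h and 4 at 6 h, against 8.32% and 18.6% of all genes, with median log2 changes of -0.40 and -0.43, and the 2 h count was 2 without the first DMSO library. SNHG20 fell by 1.38 at 2 h and by 0.98 at 6 h (edgeR adjusted p = 1.25e-05 and 0.000452). SNHG32 had a log2 change of -0.69 at 2 h and -0.27 at 6 h, and the 2 h value was -0.37, no longer called, without the first DMSO library, and the 6 h value was -0.54 and called without the second. GAS5, a well-known host that the search by position did not reach and that was likewise picked after its values were seen, had 175.6 and 180.5 CPM at 2 h, 184.4 and 190.5 CPM at 6 h, and 199.6 and 210.4 CPM in DMSO. Its log2 change was -0.20 at 2 h (edgeR adjusted p = 0.0285) and -0.13 at 6 h (adjusted p = 0.132). The 2 h call was lost without the second DMSO library, either 2 h library or either 6 h library, and with only the groups compared in the fit.

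Protein-coding hosts numbered 183, of which 165 were tested. At 2 h, 18 rose and 20 fell, with a median log2 change of 0.00, and at 6 h, 24 rose and 63 fell, with a median of -0.12. Over all genes tested, 8.68% rose and 8.32% fell at 2 h, and 18.0% rose and 18.6% fell at 6 h. At 6 h against 2 h, 16 hosts rose and 68 fell (median -0.16), against 11.1% and 13.1% of all genes. Those falls were 45 with scaling by library size alone, and both counts were smaller in some fits without 1 library. The 2 h rises were 9 with scaling by library size alone and 11 with only the groups compared in the fit. Leaving out 1 library moved the 2 h rises to between 4 (without the second 2 h library) and 29 (without the second DMSO library), with 9 without the first 2 h library and 11 without either 6 h library. It moved the 2 h falls to 13 and 12 without the first and the second 2 h library, and the 6 h rises to 15 without either 6 h library. HSPA8, a constitutive heat shock chaperone, fell to 2797 and 2873 CPM at 2 h and to 1586 and 1601 CPM at 6 h, against 3728 and 4002 CPM in DMSO. Its log2 changes were -0.45 at 2 h and -1.28 at 6 h (edgeR adjusted p = 6.51e-11 and 5.5e-27).

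WDR43, a factor of the small ribosomal subunit, fell by 0.27 at 2 h and 0.99 at 6 h (edgeR adjusted p = 0.00166 and 6.5e-17). NCL, which encodes nucleolin, had a log2 change of -0.02 at 2 h (edgeR adjusted p = 0.821) and fell by 0.65 at 6 h (adjusted p = 1.61e-15). EIF4A2, an initiation factor helicase gene with 5 snoRNA genes in its span, rose by 0.41 at 6 h (edgeR adjusted p = 1.57e-07). Its 2 h value was 0.19 (edgeR adjusted p = 0.0158), a call lost without the first DMSO library or either 2 h library. EIF4A2 was picked for its 5 snoRNA genes and its direction after its values were seen.

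Among genes for proteins that bind snoRNAs and for their assembly factors, more were called lower at 6 h than at 2 h. Of 13 genes for box C/D proteins and their assembly factors, 5 fell at 2 h (median log2 change -0.09) and 9 fell at 6 h (median -0.54), and the rest were not called. Over all genes tested, 8.32% were called lower at 2 h and 18.6% at 6 h. At 6 h against 2 h, 8 of the 13 fell (median -0.33) and 5 were not called, against 13.1% of all genes lower. NOPCHAP1 had -1.07 at 6 h against DMSO and 0.01 at 6 h against 2 h (edgeR adjusted p = 1.06e-10 and 0.983). The 2 h count was 3 without the first 2 h library. NOP56, a core protein that itself hosts snoRNAs in its introns, had 325.4 and 312.4 CPM at 2 h, 211.5 and 205.5 CPM at 6 h, and 417.0 and 394.4 CPM in DMSO. It fell by 0.35 at 2 h and 0.96 at 6 h (edgeR adjusted p = 2.67e-05 and 2.67e-17), and all 3 groups were apart.

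NOP58, its partner in the particle, fell by 0.33 at 2 h and 0.83 at 6 h (edgeR adjusted p = 0.000298 and 1.31e-13). NOPCHAP1, a chaperone in the loading of NOP58, fell to 27.7 and 30.2 CPM at 2 h and 30.8 and 27.4 CPM at 6 h, against 66.7 and 55.7 CPM in DMSO, by log2 changes of -1.08 and -1.07 (edgeR adjusted p = 3.61e-10 and 1.06e-10). SNU13, which binds the box C/D fold, fell by 0.68 at 6 h (edgeR adjusted p = 1.65e-11). Its 2 h value of -0.19 lost its call without the first DMSO library, either 2 h library or either 6 h library. That call was also lost with no filter on low counts and with only the groups compared in the fit.

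Of 6 genes for box H/ACA proteins and assembly factors, none was called at 2 h by edgeR or by DESeq2, though 3 were lower at an unadjusted p under 0.05. The median log2 change was -0.14. NHP2 was called at 2 h without the first 2 h library (-0.38) or without the second DMSO library (-0.45), and DKC1 with scaling by library size alone (-0.18). At 6 h, 5 of the 6 fell, with a median of -0.53, against 18.6% of all genes lower. Over all genes, 13.1% were lower at 6 h against 2 h. At 6 h against 2 h, 4 of the 6 fell, and 2 did without either 2 h library, without either 6 h library or with scaling by library size alone. DKC1, the pseudouridine synthase, had 228.2 and 217.6 CPM at 2 h, 146.8 and 147.1 CPM at 6 h, and 247.6 and 245.9 CPM in DMSO. Its log2 change was -0.15 at 2 h (edgeR adjusted p = 0.119) and -0.75 at 6 h (adjusted p = 7.86e-13). NHP2, GAR1 and NOP10, the other core proteins, fell by 0.55, 0.57 and 0.50 at 6 h (edgeR adjusted p = 4.93e-05, 5.03e-05 and 0.000792), and the call of NHP2 was lost with DESeq2 (-0.55).

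**Figure D4:**
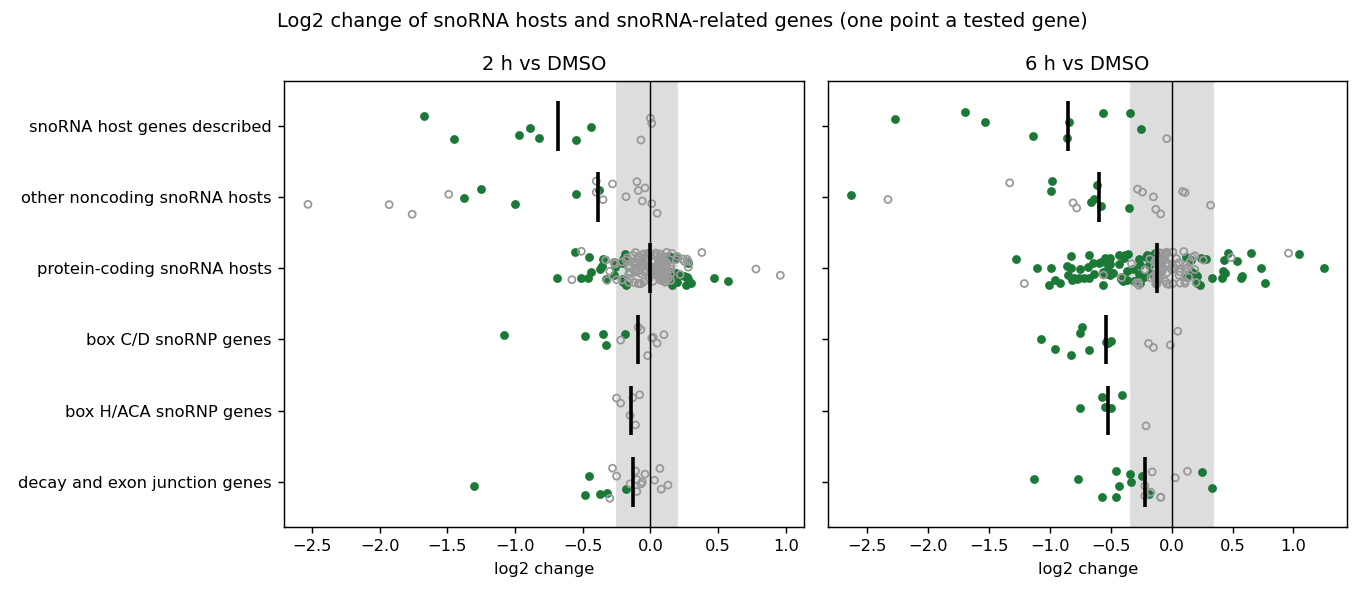
Log2 change at 2 h (left) and 6 h (right) against DMSO, 1 point a tested gene, for the 10 hosts, 20 other noncoding hosts, 165 protein-coding hosts, and genes of snoRNA particles and of decay. Filled points were called at an adjusted p under 0.05, thick bars are medians, and the grey band runs between the lower and the upper quartile of all genes. The box C/D median is -0.09 at 2 h and -0.54 at 6 h.

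Nonsense-mediated decay destroys many spliced host RNAs, though decay of the 10 hosts was not measured. Genes listed for it and for the exon junction complex numbered 20. Of these, 6 fell at 2 h and 14 were not called (median log2 change -0.13), against 8.32% of all genes lower, and at 6 h, 10 fell and 2 rose (median -0.22), against 18.6% and 18.0%. The 2 h count was 10 without the second DMSO library, and the 6 h rises were 1 without the first 6 h or the second DMSO library and 0 by edgeR without the second 6 h library. SMG5, which recruits decay enzymes to phosphorylated UPF1, had 152.8 and 153.3 CPM at 2 h, 169.3 and 175.8 CPM at 6 h, and 390.9 and 363.9 CPM in DMSO. It fell by 1.30 at 2 h and 1.13 at 6 h (edgeR adjusted p = 8.46e-21 and 6.97e-19). UPF1, the central helicase, fell by 0.37 and 0.43 (edgeR adjusted p = 7.51e-05 and 1.24e-06), and DHX34 fell by 0.77 at 6 h (adjusted p = 5.55e-10).

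Among 10 genes that release snoRNAs from introns and trim their ends, 2 fell and 1 rose at 2 h, and 4 fell and 1 rose at 6 h, with medians of 0.04 and -0.09. Over all genes, 8.32% fell and 8.68% rose at 2 h, and 18.6% fell and 18.0% rose at 6 h. The rise at 2 h was lost without the first DMSO library or either 2 h library, and the 6 h falls were 2 without the second DMSO or the second 6 h library. DBR1, which opens intron lariats, had log2 changes of -0.62 at 2 h and -0.44 at 6 h (edgeR adjusted p = 0.000645 and 0.00815), and its 6 h call was lost without the second DMSO library (-0.31) or the second 6 h library (-0.41). EXOSC3, a subunit of the RNA exosome, fell by 0.60 and 0.64 (edgeR adjusted p = 0.000606 and 9.69e-05). XRN1, the main cytoplasmic exonuclease acting from the 5′ end, rose by 0.54 at 6 h (edgeR adjusted p = 2.37e-07). It alone of the 10 was called higher, at 2 h and at 6 h, so both rises come from a cytoplasmic enzyme. XRN2, another of the 10, was not called at 2 h or 6 h (0.08 and -0.02).

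Other TOP messenger RNAs, 19 of 20 tested with ribosomal protein genes left out, held genes called in each direction. At 2 h, 6 rose and 2 fell (median log2 change 0.10), against 8.68% and 8.32% of all genes, and at 6 h, 3 rose and 7 fell (median -0.07), against 18.0% and 18.6%. At 6 h against 2 h, 13 fell and none rose (median -0.17), against 13.1% and 11.1% of all genes. Those falls were 6 with scaling by library size alone, and fewer than 13 without either 2 h or either 6 h library. The 2 h rises were 2 with scaling by library size alone and 3 with only the groups compared in the fit. The counts also depended on single libraries: the 2 h rises were 2 without either 2 h or either 6 h library and 11 without the second DMSO library, the 2 h falls were 1 without either 2 h library, the 6 h rises were 1 without either 6 h library, and the 6 h falls were 3 without the first 6 h library. EEF1D, an elongation factor subunit, fell by 0.45 and 0.78 (edgeR adjusted p = 6.18e-06 and 3.71e-12). EEF2, the elongation factor that moves the ribosome along, rose by 0.27 at 2 h and 0.12 at 6 h (edgeR adjusted p = 1.01e-05 and 0.025), and its 6 h call was lost without either 2 h library, without either 6 h library or with only the groups compared. NPM1, which encodes nucleophosmin, had 0.04 at 2 h (edgeR adjusted p = 0.631) and fell by 0.49 at 6 h (adjusted p = 5.38e-12). Of 4 LARP genes, 2 fell at 6 h, against 18.6% of all genes. LARP1, which binds the TOP motif, had -0.08 at 2 h (edgeR adjusted p = 0.365) and fell by 0.49 at 6 h (adjusted p = 4.63e-10).

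Genes whose pattern over the 6 libraries lay closest to each host were found by the Euclidean distance between mean-centred log2 CPM profiles. For SNHG4 they were MCM3AP-AS1 at 0.239, MVP-DT at 0.398 and ZNF587B at 0.420. MCM3AP-AS1, an antisense noncoding gene, had 6.72 and 5.17 CPM at 2 h, 5.82 and 6.26 CPM at 6 h, and 16.6 and 18.7 CPM in DMSO. SNHG3 lay closest to CIPC (0.130) and MAT2A (0.179), the gene of an S-adenosylmethionine synthetase. MAT2A had 237.4 and 234.6 CPM at 2 h, 283.4 and 275.7 CPM at 6 h, and 462.5 and 460.7 CPM in DMSO. Its log2 difference between 6 h and 2 h was 0.24 (edgeR adjusted p = 0.00166), while that of SNHG3 (0.13) was not called. A shared direction follows from the search by pattern, and nothing is read from it.

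SNHG1 lay closest to TEX261 (0.0545) and JPT2 (0.0842), SNHG7 to CPNE7 (0.207), SNHG12 to DDX12B (0.239) and SNHG8 to NUDT16L1 (0.0800). SNHG5 lay closest to GCN1 (0.0582), SNHG15 to COX10 (0.0755) and SNHG6 to RUFY1 (0.0535). The nearest gene to SNHG26 was SLCO5A1-AS1 at a distance of 0.621, further than for any other host, and at 0.927 to 4.58 CPM a sparse gene. Within the set, the closest pairs were SNHG5 with SNHG15 (0.341), SNHG6 with SNHG15 (0.375) and SNHG1 with SNHG12 (0.396), and the nearest host to SNHG26 was SNHG4 at 1.05. Distances grow with the size of the changes and with counting noise, and the profiles share all 6 libraries.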

How the data were processed

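What was measured is the number of RNA-seq fragments in each gene, in 6 libraries of JJN3. Per the file headers, the deposited counts came from featureCounts 2.0.0 on GENCODE 34, as fragments of paired reads with a mapping quality of at least 20, without regard to strand, with fragments over exons of several genes assigned to none. Per the submitters' processing notes, reads were trimmed with Trimmomatic and aligned with STAR to hg38 (the sources used here do not give their versions). The other deposited column is the length of each gene's exon union, per the file headers. A record of ANK2 broken over several lines was rejoined.

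Counts were analysed with edgeR 4.0.16 in R 4.3.3: TMM factors, the filterByExpr filter (15548 genes), a quasi-likelihood fit with 3 group means over the 6 libraries, and Benjamini-Hochberg adjustment over all genes, with a threshold of 0.05. The biological coefficient of variation was 7.72%, with 3 residual and 42.8 prior degrees of freedom, so that each gene borrowed most of its spread from the other genes. The SE values come from the quasi-likelihood fit and include the spread between libraries. The floor of 3 counts covers counting error only. CPM used TMM-scaled library sizes. Gene types came from GENCODE 29. The procedure was tested on simulated data. Alternatives were 2 other scalings, no filter, DESeq2 1.42.0, a replicate block, a fit restricted to the groups of a comparison and leaving out each library. The genes and lists were chosen with earlier results of these data known.

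Genes named are the 10 hosts, genes that overlap them or start within 1000 bases on the other strand, snoRNA genes in them with at least 10 counts, up to 4 genes a list with the smallest adjusted p (mean of at least 4 CPM), and the 3 genes closest in pattern to each host. Not every gene that meets these criteria is reported here. Figures were drawn with matplotlib 3.10.9 in Python 3.11.15.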

Additional observations from a re-analysis of the deposited data

How the results depend on the processing

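No called log2 change of the 10 hosts changed sign under any of the 12 alternatives. Over all values and settings of the hosts, 332 moved by less than the SE and 28 by more. Leaving out each library in turn gave 1527 to 2911 genes called at 2 h against DMSO (2642 with all libraries), 4021 to 5600 at 6 h against DMSO (5693) and 2288 to 4661 at 6 h against 2 h (3772). A lone library was then assumed to vary like the other groups. The lowest 2 h count came without the second 2 h library, and the 6 h against 2 h count was 2288 without the first 6 h library and 2372 without the second. Libraries with the same replicate number did not deviate together (correlations of deviations -0.0054, -0.0381 and -0.0205). Whether the numbers mark paired series is not stated in the labels, and these correlations cannot settle it. With the replicate block the counts were 2658, 5686 and 3807. Scaling by library size alone put the median of all genes at 0.08 at 6 h against 2 h (0.01 with TMM) and gave 2409 genes higher and 1523 lower there, against 1731 and 2041 with TMM, and at 2 h against DMSO 1128 higher and 1561 lower, against 1349 and 1293. SNHG12 at 6 h against 2 h gained a call in 4 alternatives, and SNHG15 lost it in 6. SNHG26 lost its call at 6 h against 2 h without the first 6 h library. With 2 libraries a group, changes near those of SNHG5, SNHG8 and SNHG15 are at the limit of what these data resolve.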
